A study of Mus musculus with 10 samples.

Results

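Expression of 10 transcription factor genes of the ETS, GATA and partner families was measured in endothelial cells of mouse glioma: Erg, Fli1, Ets1, Ets2, Elk3 and Etv6 of the ETS family, Tal1 and Lyl1 of the basic helix-loop-helix family, the zinc finger gene Gata2, and the MADS-box gene Mef2c. They were chosen by symbol, and 10 of 10 were found among the 23238 gene symbols shared by all libraries, each on a single row. GL26l glioma cells (spelled as in the labels) were injected into the brains of mice, endothelial cells were purified from the tumours, and their RNA was sequenced as 3′ tags. There were 2 Sox7-deficient and 2 Sox7 control libraries, and 3 Sox17-deficient and 3 Sox17 control libraries, from mice on a C57BL/6 background. Deficient animals carried floxed Sox7 (Sox7fl/fl) or floxed Sox17 (Sox17fl/fl) with the Cdh5(BAC)-CreERT2 driver, whose recombinase is expressed from the promoter of the endothelial cadherin gene, and received 20 mg/kg tamoxifen into the peritoneum. The labels do not give the controls' Cre status or treatment, so the deletion, tamoxifen and recombinase activity cannot be told apart. Deficient and control libraries with the same number form a set, and each arm has its own controls.

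ETS factors bind DNA sites with a GGAA core, and such sites are found in the control regions of nearly all genes that define endothelium, often next to sites for GATA, SCL/TAL and MEF2 factors. Sox7 and Sox17, with Sox18, form the SoxF family, which acts together with these factors in vessel growth and in arterial identity. In adult endothelium the ETS factors Erg and Fli1 are known for holding the endothelial programme in place, while Tal1, Lyl1 and Gata2 are best known from their shared complex in early blood and endothelial cells.

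None of the 10 genes passed the edgeR test at an adjusted p under 0.05 in either arm, where 0% of all 13040 genes tested did (0 genes in each arm), so that count says nothing particular to them. The lowest unadjusted p-value belonged to Mef2c in the Sox17 arm, where its level was lower in the Sox17-deficient library of every set. That difference was largest in the set with the shallowest library, and was smaller by more than 1.5 times on the log2 scale without that library.

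Windows of 250 bases before the start site, from RefSeq on build GRCm38.p6, were found for 8 of the 10 genes; Fli1 and Ets1 had no entry. They are printed for the genes whose level differed most in one arm or the other (Mef2c and Tal1) and for Lyl1, the relative of Tal1 with the lowest level of the 10. Capitals mark the ETS core GGAA or its reverse complement TTCC. The Mef2c window, chr13:83503784-83504033 on the plus strand, belongs to the first of 3 listed start sites and holds 9 such cores.

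Mef2c: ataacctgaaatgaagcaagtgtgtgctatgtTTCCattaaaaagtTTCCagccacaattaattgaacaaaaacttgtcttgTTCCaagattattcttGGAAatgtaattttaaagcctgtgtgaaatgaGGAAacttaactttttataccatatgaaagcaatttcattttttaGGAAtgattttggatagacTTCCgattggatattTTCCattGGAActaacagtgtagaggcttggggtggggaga

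The Tal1 window, chr4:115056176-115056425 on the plus strand, belongs to the first of 2 listed start sites and holds 4 cores. The window of the second start site holds 3.

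Tal1: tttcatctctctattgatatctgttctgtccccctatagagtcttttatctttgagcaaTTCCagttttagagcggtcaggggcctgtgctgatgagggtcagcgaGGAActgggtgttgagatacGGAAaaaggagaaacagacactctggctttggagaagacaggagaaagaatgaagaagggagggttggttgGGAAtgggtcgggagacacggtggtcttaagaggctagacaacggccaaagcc

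The Lyl1 window, chr8:84701207-84701456 on the plus strand, holds 5 cores.

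Lyl1: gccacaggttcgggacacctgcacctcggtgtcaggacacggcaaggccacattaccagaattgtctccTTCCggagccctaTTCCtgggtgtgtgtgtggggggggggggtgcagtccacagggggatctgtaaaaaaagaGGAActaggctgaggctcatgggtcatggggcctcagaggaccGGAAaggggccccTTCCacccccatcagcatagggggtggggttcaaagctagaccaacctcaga

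Both strands were searched, in 32851 windows in all and in the 14 windows of the 8 genes, of which Erg and Mef2c have 3 each and Tal1 and Gata2 2 each. GGAA occurred in 93.4% of all windows and in 13 of the 14, so its presence sets none of the genes apart. The longer ETS site CCGGAA, which contains GGAA, was in 12.03% of all windows and in 1 of the 14, that of Lyl1. The GATA site AGATAA was in 9.99% of all windows and in 2 of the 14, 1 each of Tal1 and Erg. The SOX core ACAAT was in 27.7% of all windows and in 3 of the 14, 1 each of Erg, Lyl1 and Mef2c. The longer SOX form AACAAT, which contains ACAAT, was in 9.42% and in 1 of the 14, of Erg. The E-box CAGCTG, a site for factors such as Tal1, was in 13.001% and in 0 of the 14, and the E-box CAGATG in 14.4% and in 1, of Mef2c. The MEF2 pattern (CTA, any 4 bases, TAG) was in 3.202% and in 0 of the 14. These are matches of letters in a short window and not measured binding sites.

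Library totals ran between 2082305 counts (Sox17 control 1) and 35068802 counts (Sox17-deficient 2), and 3 counts in a library corresponded to 0.0847 to 1.36 CPM, counts per 1000000 counts of a library with TMM scaling. The ribosomal gene Rn45s took 22.2% of counts in Sox7 control 1 and 28.8% in Sox7-deficient 1. It took 4.64% in Sox7 control 2, 7.03% in Sox7-deficient 2 and 3.93% to 16.8% in the Sox17 arm. Sox7-deficient 1 had the highest share and the lowest TMM factor, 0.754. The 10 genes had between 19 and 24091 counts in a library, and the values under 100 counts were those of Tal1 (19) and Lyl1 (41) in Sox17 control 1. The targeted genes followed the labels: Sox7 averaged 0.62 ± 0.061 CPM in Sox7-deficient and 14.5 ± 12.2 CPM in Sox7 control libraries (SD, n = 2 each), and Sox17 averaged 3.23 ± 3.03 CPM in Sox17-deficient and 119 ± 47.7 CPM in Sox17 control libraries (SD, n = 3 each). Their log2 fold changes were -4.52 (SE 1.04, edgeR adjusted p = 1) and -5.24 (SE 0.81, edgeR adjusted p = 0.226). The position of the tags relative to the floxed exons is not given in the sources used here. Pecam1, the defining endothelial marker, had counts in all 10 libraries, and all 22 pan-endothelial genes were detected in each. The geometric mean of their CPM + 1 was 367 in Sox7-deficient 1, the lowest, and between 587 and 715 in the other libraries. Sox7-deficient 1 also held 17151 CPM summed over 21 macrophage and microglia markers, against 199 CPM in Sox7-deficient 2 and 1031 and 378 CPM in the Sox7 controls, and 20 of 20 tested markers had a positive fitted change in that arm. Their defining marker, Csf1r, ran from 1 count (0.454 CPM) in Sox17 control 1 to 4066 counts (587 CPM) in Sox7-deficient 1. In Sox17 control 1 only 7 of the 21 markers had any count. In such bulk samples fewer cells of a type and less RNA per cell cannot be told apart.

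A 3′ tag count does not grow with transcript length, so levels were set side by side in CPM. The annotation used for counting is not given, and its effect on the order of the genes was not tested. Over the 10 libraries Ets1 had the highest mean level, 539 CPM, followed by Mef2c at 357, Gata2 at 284 and Fli1 at 223 CPM. Ets2 (174), Elk3 (166), Etv6 (162) and Erg (135) lay close together, and Tal1 at 45.1 CPM and Lyl1 at 25.7 CPM were the lowest. By mean level in the 5 control libraries, the 8 genes from Ets1 to Erg stood above at least 90.9% of the 13040 genes tested, Tal1 above 71.0% and Lyl1 above 57.0%. The 10 levels therefore spanned abundant and middling transcripts, and all 10 passed the filter on low counts. Their spread over the 10 libraries, as the SD of log2(CPM + 1), ran from 0.37 for Elk3 to 0.88 for Tal1, against a median of 0.70 for tested genes with a mean of 10 CPM or more. When the 4 groups were ordered by mean level gene by gene, 27 of 30 neighbouring pairs of groups overlapped. Of such pairs over all genes tested 7.08% did not overlap (2770 of 39120), and 3 in 30 is near that share. The 3 were Ets2 (Sox7-deficient below Sox7 control), Etv6 (Sox17-deficient below Sox17 control) and Mef2c (Sox7-deficient above Sox17-deficient, groups of different arms).

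**Figure D1:**
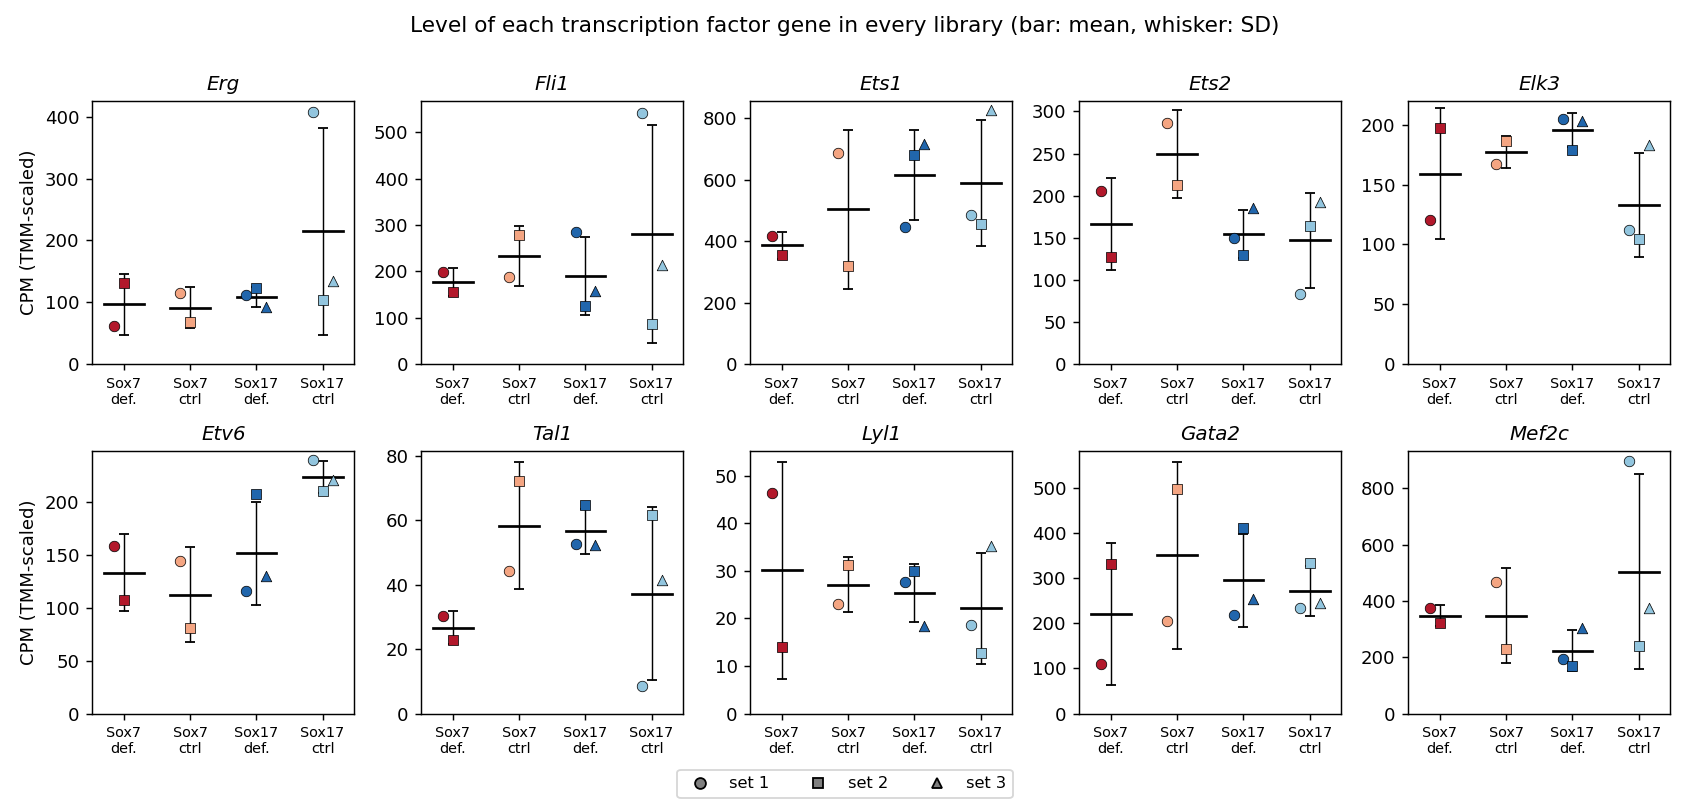
Level of each gene in CPM scaled by TMM (linear axes from 0), with 1 point per library, a bar at the group mean and a whisker of 1 SD; the point shape gives the set. Sox17 control 1, a set 1 point, is the highest point for Erg, Fli1, Etv6 and Mef2c and the lowest for Ets2 and Tal1.

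Of the activating ETS factors, Erg, the one most closely tied to endothelium, had 61.6 and 131 CPM in Sox7-deficient libraries 1 and 2, against 115 and 67.5 CPM in Sox7 controls 1 and 2. The 2 Sox7 sets went opposite ways and the groups overlapped. The fitted log2 fold change was 0.08 (SE 0.61, 95% interval -1.19 to 1.35), with -0.56 without Sox7-deficient 2 and 0.50 without Sox7-deficient 1. Erg had 112, 123 and 91.4 CPM in Sox17-deficient libraries 1 to 3, against 408, 104 and 134 CPM in Sox17 controls 1 to 3. A single library, Sox17 control 1, stood far above the other 5, and Sox17-deficient 2 lay above its own control. The fitted log2 fold change of Erg there was -0.98 (SE 0.50, 95% interval -2.03 to 0.07; edgeR unadjusted p = 0.0649, adjusted p = 1), and -0.14 without Sox17 control 1.

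Fli1, the nearest relative of Erg and also a factor of megakaryocytes, had 198 and 155 CPM in Sox7-deficient libraries, against 187 and 279 CPM in Sox7 controls. Its log2 fold change there was -0.40 (SE 0.65), and it was -0.69 without Sox7 control 1 and -0.090 without Sox7 control 2. Its values were 286, 126 and 158 CPM in Sox17-deficient libraries and 543, 86.4 and 214 CPM in Sox17 controls. Sox17 controls held both the highest and the lowest Fli1 value of the 10 libraries, so the deficient libraries lay inside the controls' range. The log2 fold change was -0.56 (SE 0.53, edgeR unadjusted p = 0.302), and it changed sign to 0.32 without Sox17 control 1.

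Ets1, known for its part in sprouting endothelium and in lymphocytes, was the most abundant of the 10. It had 416 and 356 CPM in Sox7-deficient libraries, against 687 and 319 CPM in Sox7 controls, and 446, 679.8 and 715 CPM in Sox17-deficient libraries, against 485, 456 and 826 CPM in Sox17 controls. Groups overlapped in both arms. The log2 fold changes were -0.38 (SE 0.50) in the Sox7 arm and 0.06 (SE 0.41) in the Sox17 arm. The Sox7 value was -0.83 without Sox7 control 2 and 0.25 without Sox7 control 1. The Sox17 interval, -0.80 to 0.92, still holds changes of nearly 1 log2 unit in either direction.

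Ets2, a widely expressed relative of Ets1, had 205 and 128 CPM in Sox7-deficient libraries, against 286 and 213 CPM in Sox7 controls. Both Sox7-deficient values lay below both control values. The fit gave a log2 fold change of -0.58 (SE 0.50, 95% interval -1.62 to 0.46; edgeR unadjusted p = 0.255, adjusted p = 1), and it was -0.99 without Sox7-deficient 1 and -0.28 without Sox7-deficient 2. With libraries scaled to the pan-endothelial genes, which moved the median of all genes in that arm to 0.56, the Ets2 value was -0.0035. Its levels were 150.2, 129 and 185 CPM in Sox17-deficient libraries and 83.5, 164 and 193 CPM in Sox17 controls, which overlapped, with a log2 fold change of 0.07 (SE 0.40). Within sets, deficient minus control on the log2(CPM + 1) scale was 0.84 in set 1, -0.34 in set 2 and -0.06 in set 3.

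These 4 genes lie in 2 neighbouring pairs on GRCm38: Fli1 (chr9:32422204-32542861) and Ets1 (chr9:32636221-32757820) are 93.4 kb apart, and Erg (chr16:95359169-95586593) and Ets2 (chr16:95702075-95721051) are 115 kb apart. The neighbours did not share their extremes: Sox17 control 1 held the highest Erg and the lowest Ets2 of the 10 libraries.

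Of the ETS repressors, Elk3, a ternary complex factor that works with serum response factor, had 120.4 and 198 CPM in Sox7-deficient libraries, against 167 and 187 CPM in Sox7 controls. The fitted value was -0.16 on the log2 scale (SE 0.47). Elk3 had 204, 179 and 203 CPM in Sox17-deficient libraries and 112, 104 and 183 CPM in Sox17 controls. Elk3 was higher in the Sox17-deficient library of every set, by 0.86, 0.77 and 0.15 on the log2(CPM + 1) scale, although control 3 lay above deficient 2. The fitted log2 fold change was 0.55 (SE 0.38, 95% interval -0.25 to 1.35; edgeR unadjusted p = 0.166, adjusted p = 1), and it stayed between 0.39 and 0.85 with any 1 library left out.

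Etv6, a repressor of the same family that is needed for blood stem cells in the marrow, had 159 and 108 CPM in Sox7-deficient libraries, against 144 and 80.7 CPM in Sox7 controls, a log2 fold change of 0.25 (SE 0.48). Its values were 116, 207 and 131 CPM in Sox17-deficient libraries and 240.1, 210.5 and 221 CPM in Sox17 controls. All 3 Sox17-deficient values lay below all 3 control values, the closest being 207 CPM in deficient 2 against 210.5 CPM in control 2. The log2 fold change was -0.56 (SE 0.39, 95% interval -1.39 to 0.26; edgeR unadjusted p = 0.169, adjusted p = 1), and it lay between -0.86 (without Sox17-deficient 2) and -0.41 (without Sox17-deficient 1) with any 1 library left out.

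Tal1, also called SCL, pairs with E-proteins and recruits the LIM-domain bridge Lmo2 and Ldb1 to sites that GATA factors share. It had 30.2 and 23.0 CPM in Sox7-deficient libraries, against 44.3 and 72.3 CPM in Sox7 controls. Both Sox7-deficient values lay below both control values. The log2 fold change, -1.13 (SE 0.72, 95% interval -2.64 to 0.37; edgeR unadjusted p = 0.131, adjusted p = 1), was the most negative of the 10 in that arm, and ran from -1.47 to -0.74 with any 1 library left out. It was -0.60 with pan-endothelial scaling. Tal1 had 52.7, 64.6 and 52.4 CPM in Sox17-deficient libraries and 8.62, 61.5 and 41.5 CPM in Sox17 controls. The value of 8.62 CPM rested on 19 counts, with an exact 95% Poisson interval of 5.19 to 13.5 CPM that covers counting error only. The differences within sets were 2.48, 0.07 and 0.33, and the log2 fold change was 0.59 (SE 0.58) with all libraries, 0.12 without Sox17 control 1 and 1.14 without Sox17 control 2.

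Lyl1, the close relative of Tal1, had 46.3 and 13.9 CPM in Sox7-deficient libraries, against 23.0 and 31.2 CPM in Sox7 controls. The highest Lyl1 value of the 10 libraries was that of Sox7-deficient 1, the library with the macrophage markers, and its part in the Lyl1 level was not tested. The log2 fold change was 0.15 (SE 0.82) and changed to -0.98 without that library. Lyl1 had 27.7, 29.97 and 18.5 CPM in Sox17-deficient libraries and 18.6, 12.7 and 35.2 CPM in Sox17 controls, with overlapping groups and a log2 fold change of 0.19 (SE 0.67).

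Gata2, the main GATA gene of endothelium, had 109 and 331 CPM in Sox7-deficient libraries, against 204 and 497 CPM in Sox7 controls. Within each Sox7 set the deficient library was lower, with differences of -0.90 and -0.58 on the log2(CPM + 1) scale, but the sets themselves stood apart, with set 2 well above set 1 in both groups. The log2 fold change was -0.67 (SE 0.57, 95% interval -1.86 to 0.52; edgeR unadjusted p = 0.251), and was -1.69 without Sox7-deficient 2, -0.10 without Sox7-deficient 1 and 0.11 without Sox7 control 2. Sox7-deficient 1 held both the lowest Gata2 and the lowest pan-endothelial level of the 10 libraries. With arm means subtracted, Gata2 correlated with that level at 0.80, the highest of the 10 genes, followed by Tal1 at 0.34. The part of the endothelial share in the Gata2 difference was not tested. Gata2 had 219, 412 and 254 CPM in Sox17-deficient libraries and 234, 334 and 245 CPM in Sox17 controls. Those 3 pairs lay close together, with a log2 fold change of 0.12 (SE 0.46, 95% interval -0.85 to 1.09).

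Mef2c, a MADS-box factor that drives the shear-responsive genes Klf2 and Klf4 in endothelium and is also used by smooth muscle and microglia, had 375 and 321 CPM in Sox7-deficient libraries, against 467 and 229 CPM in Sox7 controls. Both deficient values lay between the control values, and the fitted difference was close to 0 (SE 0.58). In the Sox17 arm it had 195, 167 and 305 CPM in Sox17-deficient libraries and 896, 241 and 375 CPM in Sox17 controls. The deficient library was lower in every set, with differences of -2.19, -0.53 and -0.30 on the log2(CPM + 1) scale, while deficient 3 lay above control 2, so the groups overlapped. Its log2 fold change was -1.18 (SE 0.48, 95% interval -2.18 to -0.18; edgeR unadjusted p = 0.0233, adjusted p = 1). It was -0.48 without Sox17 control 1, the library with 2082305 counts, in which Mef2c had 1975 counts. The part of library depth in that difference was not tested.

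Sox17 control 1 also held the highest sum of 12 pericyte and smooth muscle markers. By the geometric mean of CPM + 1 over these markers Sox17 control 2 was highest, at 38.6 against 29.7 in Sox17 control 1. The marker sum was 319, 353 and 367 CPM in Sox17-deficient libraries 1 to 3, against 1320.1, 826 and 343 CPM in Sox17 controls 1 to 3. It was lower in the deficient library of sets 1 and 2 and slightly higher in that of set 3. Of the markers 11 of 12 had a negative fitted change. Their defining marker, Pdgfrb, was above 0 in all 10 libraries. Summed erythroid markers were 430, 71.6 and 68.5 CPM in Sox17-deficient libraries and 2909.8, 312 and 129 CPM in Sox17 controls, with 6 of 6 tested markers of 10 listed at a negative fitted change, while Gata1 and Klf1, the factors that define that lineage, were at 0 in every library. The part of these cells in the Mef2c, Erg and Fli1 differences was not tested. The mast cell marker Cpa3 and the B cell marker Cd79a were at 0 in all 10 libraries. Of the same lists, Kit and Hdc passed the filter on low counts, and Cd79b had at most 21 counts in a library. Summed T and NK cell markers were 93.4 CPM in Sox7-deficient 1, against 0.133 CPM in Sox7-deficient 2 and 15.9 and 17.8 CPM in the Sox7 controls. The part of such cells in the Ets1 and Gata3 levels was not tested.

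**Figure D2:**
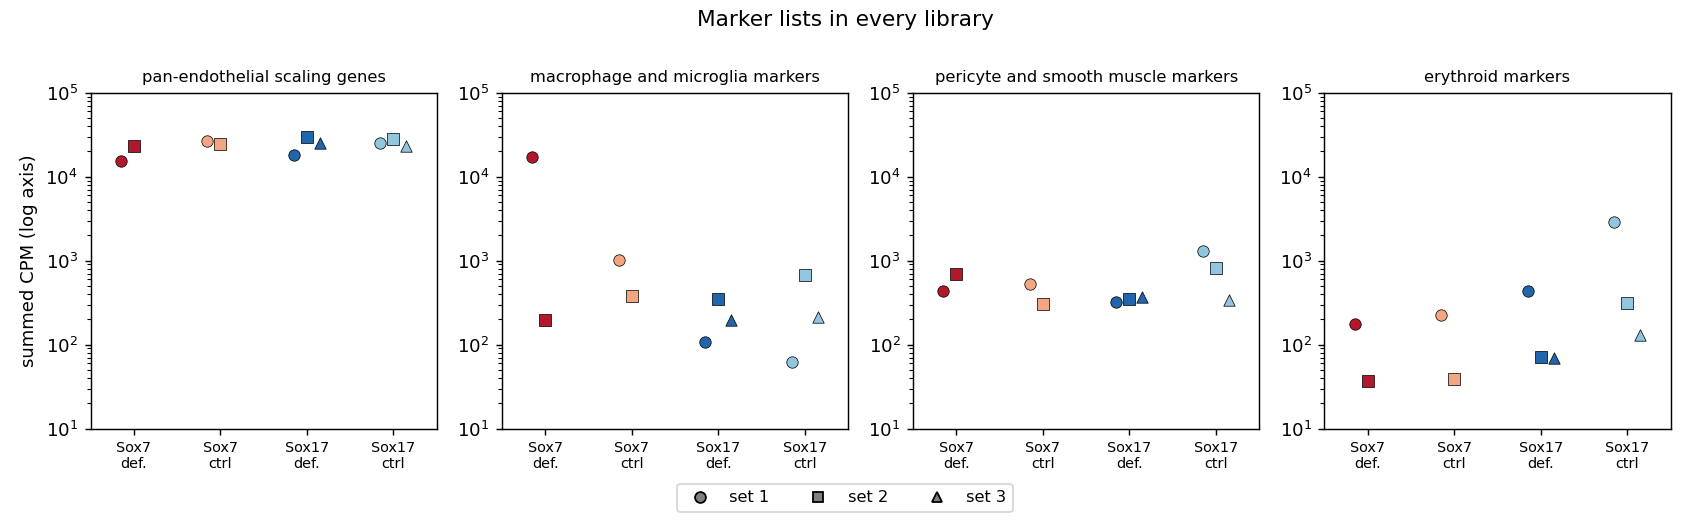
Summed CPM (log axis) of 4 marker lists in every library. Sox7-deficient 1 stands apart at 17151 CPM of macrophage and microglia markers, and Sox17 control 1 has the highest sums of pericyte and smooth muscle markers (1320.1 CPM) and of erythroid markers (2909.8 CPM).

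Across the 10 genes, 0 were called in the Sox7 arm and 0 in the Sox17 arm at an adjusted p under 0.05 by edgeR, against a background of 0% of the 13040 genes in each (0 genes in each). At an unadjusted p under 0.05 edgeR counted 0 of the 10 in the Sox7 arm, where the background was 1.5%, and 1 in the Sox17 arm, Mef2c, where it was 3.52%. DESeq2 called 0 of the 10 in either arm, against 0.0235% of genes in the Sox7 arm and 0.228% in the Sox17 arm, and limma-voom called 0 of all genes in each. With the set number as a block, edgeR also called 0 of the 10, against 0.00767% in the Sox7 arm and 0.046% in the Sox17 arm. With no filter on low counts it called 0 of the 10, against 0.338% in the Sox7 arm and 0.175% in the Sox17 arm.

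The intervals at this sample size are wide. The narrowest interval among the 10 genes, that of Elk3 in the Sox17 arm, spanned -0.25 to 1.35, so a p above the threshold does not show that a level stayed the same. The labels do not say that libraries came from separate animals, and the p-values measure the spread between these samples.

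**Figure D3:**
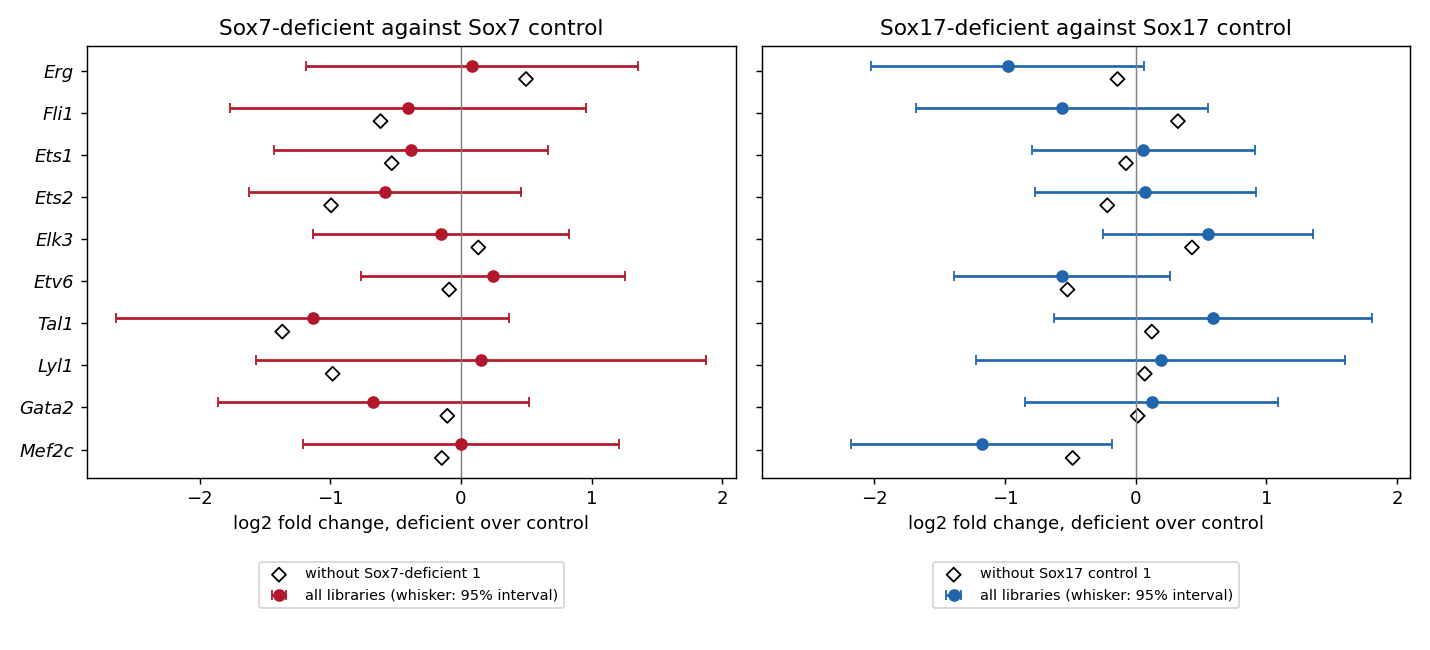
Fitted log2 fold change of each gene, deficient over control, with its 95% interval (filled points, all libraries), and the value without the library that stood apart in each arm (open diamonds). Only the interval of Mef2c in the Sox17 arm leaves out 0, and its diamond lies at -0.48.

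By direction, 7 of the 10 had a negative and 3 a positive fitted change in the Sox7 arm, with a median of -0.27, beside 47.5% negative and a median of 0.04 over all genes tested. Without Sox7-deficient 1, 8 of the 10 were negative with a median of -0.34, beside 58.1% and a median of -0.26 over all genes. In the Sox17 arm 4 were negative and 6 positive, with a median of 0.07, beside 47.1% negative and a median of 0.05 over all genes. With libraries scaled to the 22 pan-endothelial genes, the split in the Sox7 arm turned to 3 negative and 7 positive, since that scaling moved the median of all genes there to 0.56. The median of the 10 was then 0.21, again below that of all genes. Before that scaling, 21 of the 22 pan-endothelial genes were negative in the Sox7 arm, with a median of -0.45. A mostly negative split there is thus not particular to the 10.

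Groups that did not overlap were counted as well. Sox7-deficient libraries lay below both controls for 2 of the 10, Ets2 and Tal1, and above them for 0, against 12.8% and 12.7% of all genes. Sox17-deficient libraries lay below all controls for 1, Etv6, and above them for 0, against 4.23% and 4.13%. With 10 genes, counts of 2 and 1 do not set them apart from that background.

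Set by set, 3 of the 10 were lower in both Sox7-deficient libraries than in the control of the same set (Ets2, Tal1 and Gata2) and 1 was higher (Etv6), where 22.5% and 22.3% of all genes did so. In all 3 Sox17 sets 2 were lower (Etv6 and Mef2c) and 2 higher (Elk3 and Tal1), where 11.5% and 13.1% of all genes did so. Of the 10, 2 were consistent in opposite directions: Tal1 was lower in every Sox7 set and higher in every Sox17 set, as were 3.08% of all genes, and Etv6 the reverse, as were 2.19%. In all 5 sets 0 of the 10 went the same way, a pattern seen in 3.34% (lower) and 3.32% (higher) of all genes. The closest were Ets2 and Mef2c, lower in 4 of 5 sets, and Elk3, higher in 4 of 5.

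**Figure D4:**
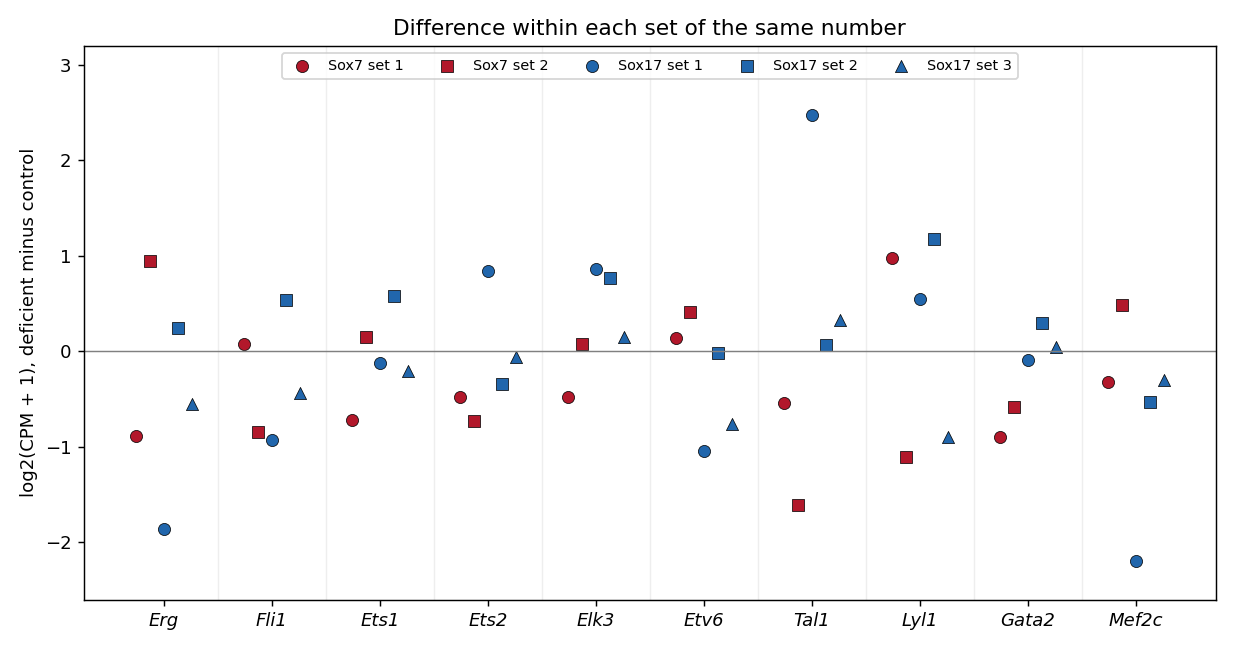
Difference of log2(CPM + 1) within each set, deficient minus control, for the 10 genes, with 1 point per set and the arms in different colours. Sox17 set 1 gives the extreme points for Tal1 (2.48), Mef2c (-2.19) and Erg (-1.86), and for each gene points lie on both sides of 0.

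The test of the difference between the arms asked whether any of the 10 responded unlike in the 2 deletions. None did at an adjusted p under 0.05 by edgeR (0 of 10, against 0% of genes; 0 of 10 at an unadjusted p under 0.05, against 2.87%). DESeq2 called 0 of the 10 there, against 0.12% of genes, and edgeR 0 of the 10 with the block, against 0.023%, and without the filter, against 0.338%. The largest difference was that of Tal1, whose Sox7 minus Sox17 log2 fold change was -1.73 (SE 0.92, edgeR unadjusted p = 0.0771). That of Mef2c was 1.18 (SE 0.75) and that of Erg 1.06 (SE 0.78). Without Sox17 control 1 the Mef2c difference was 0.47, that of Erg 0.21 and that of Tal1 -1.27.

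The remaining ETS genes were counted as a list. Of 20, 13 passed the filter on low counts, and 0 were called in either arm. In the Sox7 arm 8 had a positive and 5 a negative fitted change with a median of 0.54, which was -0.12 without Sox7-deficient 1; in the Sox17 arm 5 were positive and 8 negative, with a median of -0.31. Without Sox7 control 2 the Sox7 median was 1.45. The Sox7 medians over all genes were -0.26 without Sox7-deficient 1 and 0.04 without Sox7 control 2. The most abundant were Erf, a repressor, and Elf2, a relative of Elf1. Erf averaged 135 ± 3.45 CPM in Sox7-deficient and 147 ± 23.9 CPM in Sox7 control libraries, and Elf2 averaged 84.4 ± 27.9 CPM in Sox7-deficient and 118 ± 49.1 CPM in Sox7 control libraries (SD, n = 2 each). Gabpa, a subunit of a widely expressed ETS complex, had the lowest unadjusted p of the list in the Sox7 arm, 0.0547 by edgeR, with 36.7 ± 20.9 CPM in Sox7-deficient and 9.15 ± 6.03 CPM in Sox7 control libraries (SD, n = 2 each). Etv3, a repressor, had the lowest in the Sox17 arm, 0.101 by edgeR, with 13.7 ± 6.06 CPM in Sox17-deficient and 31.99 ± 17.2 CPM in Sox17 control libraries (SD, n = 3 each). Etv2, the ETS factor that starts the endothelial lineage in the embryo, had at most 9 counts in a library and was not tested.

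Among the other GATA genes and their FOG cofactors, 3 of 7 were tested and 0 called. Gata1, Gata4 and Gata5 were listed at 0 counts in every library. Zfpm1, the cofactor FOG1, averaged 14.3 ± 8.18 CPM in Sox7-deficient and 33.99 ± 21.2 CPM in Sox7 control libraries (SD, n = 2 each), and 19.3 ± 8.42 CPM in Sox17-deficient and 25.7 ± 3.64 CPM in Sox17 control libraries (SD, n = 3 each). The Zfpm1 log2 fold changes were -1.25 (SE 0.86) in the Sox7 arm and -0.41 (SE 0.70) in the Sox17 arm. Gata3, a GATA gene best known from T cells, varied widely between libraries, with 11.1 ± 14.9 CPM in Sox7-deficient and 0.166 ± 0.104 CPM in Sox7 control libraries (SD, n = 2 each), and 0.817 ± 1.32 CPM in Sox17-deficient and 4.49 ± 5.95 CPM in Sox17 control libraries (SD, n = 3 each).

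The partners of Tal1 and Lyl1 (E-proteins, LIM-domain proteins and inhibitors of the Id family) were tested for 13 of 13 genes, with 0 called. In the Sox7 arm 8 had a negative and 5 a positive change, with a median of -0.19, and in the Sox17 arm 6 were negative and 7 positive, with a median of 0.06. Both medians changed sign with 1 library left out: the Sox7 median was 0.07 without Sox7-deficient 1, and the Sox17 median -0.10 without Sox17-deficient 1. In those settings the medians over all genes were -0.26 and -0.02. Tcf4, the most abundant E-protein, averaged 1020.5 ± 48.9 CPM in Sox7-deficient and 1308 ± 454 CPM in Sox7 control libraries (SD, n = 2 each). Tcf12, another E-protein, had the lowest unadjusted p in the Sox7 arm, with 52.0 ± 41.6 CPM in Sox7-deficient and 148 ± 18.1 CPM in Sox7 control libraries (SD, n = 2 each), a log2 fold change of -1.51 (SE 0.56, edgeR unadjusted p = 0.0143, adjusted p = 1). For the Sox17 arm the Tcf12 value was 0.25 (SE 0.44) and that of Tcf3, the E-protein with the lowest unadjusted p there, was -0.64 (SE 0.51, edgeR unadjusted p = 0.22). Id3, an inhibitor of E-proteins, averaged 1049 ± 183 CPM in Sox17-deficient and 789.7 ± 384 CPM in Sox17 control libraries (SD, n = 3 each), a log2 fold change of 0.41 (SE 0.45), and -0.22 (SE 0.55) in the Sox7 arm.

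In the list of MEF2 genes and their regulators 9 of 10 were tested and 0 called, with 5 negative and 4 positive changes in each arm and medians of -0.04 (Sox7) and -0.10 (Sox17). The Sox17 median was 0.25 without Sox17 control 2, where that of all genes was 0.13. Hdac7, a class II deacetylase that holds MEF2 factors inactive in endothelium, averaged 583 ± 38.4 CPM in Sox7-deficient and 1054 ± 185 CPM in Sox7 control libraries (SD, n = 2 each; log2 fold change -0.85, SE 0.53). Hdac7 averaged 872 ± 495 CPM in Sox17-deficient and 1063 ± 52.2 CPM in Sox17 control libraries (SD, n = 3 each; log2 fold change -0.29, SE 0.43). Mef2a, the other well expressed MEF2 gene, averaged 133 ± 35.2 CPM in Sox17-deficient and 142 ± 0.342 CPM in Sox17 control libraries (SD, n = 3 each), a log2 fold change of -0.10 (SE 0.38) where that of Mef2c was -1.18. Whether those 2 changes differ was not tested. Myocd, the smooth muscle partner of serum response factor, averaged 0.0414 ± 0.0716 CPM in Sox17-deficient and 5.99 ± 8.97 CPM in Sox17 control libraries (SD, n = 3 each; edgeR unadjusted p = 0.048, adjusted p = 1).

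Genes described elsewhere as targets of these factors in endothelium, such as the junction gene Cdh5 and the receptor genes Tie1 and Tek, were counted last. All 24 were tested and 0 called, and 15 of the 24 also stand in the pan-endothelial list, so the 2 lists are not independent. In the Sox7 arm 22 had a negative and 2 a positive fitted change, with a median of -0.45. Over all genes tested 47.5% were negative, with a median of 0.04. The pan-endothelial list had 21 of 22 negative and the same median of -0.45, so the split is not particular to the targets. Without Sox7-deficient 1, the library with the lowest pan-endothelial level, 17 were negative and the median was -0.20. Over all genes 58.1% were then negative, with a median of -0.26. With pan-endothelial scaling 12 were negative, which says nothing on direction, since 15 of the 24 are themselves scaling genes. Without Sox7-deficient 2, 24 were negative and the median was -0.81, beside 46.7% and a median of 0.01 over all genes. In the Sox17 arm 10 were negative and 14 positive, with a median of 0.12, beside 47.1% negative and a median of 0.05 over all genes.

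By name, Vwf, the clotting factor stored by endothelium, averaged 241 ± 145 CPM in Sox7-deficient and 474 ± 284 CPM in Sox7 control libraries (SD, n = 2 each; log2 fold change -0.97, SE 0.56). Vwf averaged 388 ± 119 CPM in Sox17-deficient and 240.2 ± 59.4 CPM in Sox17 control libraries (SD, n = 3 each; log2 fold change 0.69, SE 0.45). Ptprb, an endothelial phosphatase, had the lowest unadjusted p in the Sox17 arm (0.0272 by edgeR, adjusted p = 1), with 721 ± 138 CPM in Sox17-deficient and 1527 ± 1054 CPM in Sox17 control libraries (SD, n = 3 each). The abundant Egfl7 and Esam, a secreted vessel protein and a junction protein, had log2 fold changes of -0.39 (SE 0.62) and -0.49 (SE 0.51) in the Sox7 arm and of 0.84 (SE 0.51) and 0.23 (SE 0.41) in the Sox17 arm.

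**Figure D5:**
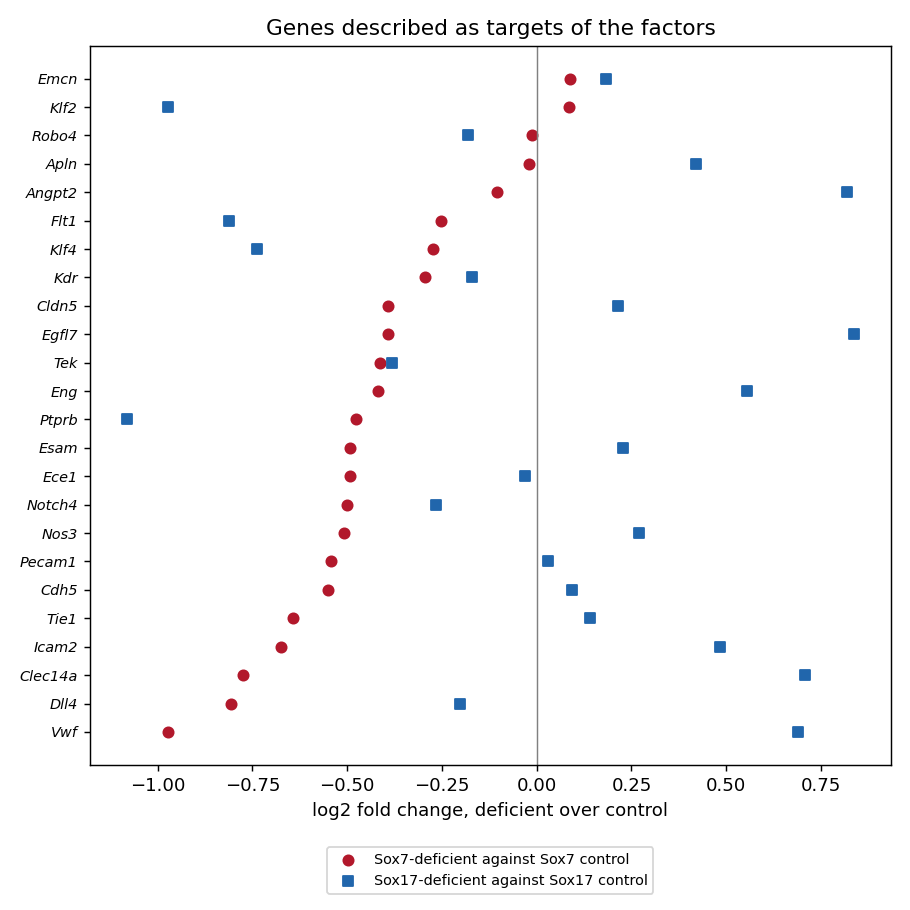
Fitted log2 fold change, deficient over control, of 24 genes described as targets of the factors, ordered by the Sox7 value (circles; squares are the Sox17 arm). In the Sox7 arm 22 of 24 circles lie below 0 (12 of 24 under pan-endothelial scaling, whose list holds 15 of them), and in the Sox17 arm 10 of 24 squares do. In the Sox7 arm 47.5% of all genes tested and 21 of 22 pan-endothelial genes were negative.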

How the data were processed

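Endothelial RNA from mouse glioma was profiled in 10 libraries made with the Lexogen QuantSeq kit from 500 ng of total RNA, per the labels' protocols. The deposited values are whole-number counts per gene symbol, 1 file per library and not normalised. Bowtie2, edgeR and build mm10 are named per the submitters' processing notes; the counting tool, its strand setting and the annotation are not given in the sources used here. The 1183 symbols listed only in the Sox17 files, all starting with Mir, were left out, and repeated symbols (35 and 43) were summed.

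The test was that of edgeR 4.0.16 in R 4.3.3 (quasi-likelihood F-test, TMM, filterByExpr, a mean for each of 4 groups over all 10 libraries, 6 residual degrees of freedom). Of 23238 symbols, 10198 were filtered out and 13040 tested. P-values were adjusted by the Benjamini-Hochberg procedure across every tested gene, with a threshold of 0.05. The SE was taken as |log2 fold change| / sqrt(F). DESeq2 1.42.0, limma 3.58.1 (voom) and the alternatives of the closing section were fitted to the same counts. The code was tested on simulated data with a smaller spread than these, so that check does not measure the power of the tests here.

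The 10 genes and all lists were chosen with earlier results of these data known. From each pathway list the text names, by rule, the 2 genes with the highest mean CPM and the gene with the lowest unadjusted p in each arm. Genes named at 0 or as untested were chosen after their values were seen. Set numbers were taken to pair the samples. Run codes in the descriptions are shared within 4 of 5 sets (Sox17 set 1 has none, and its pairing was assumed). Deviations from group means correlated over genes at 0.193 in the Sox7 sets and at 0.12, 0.0911 and 0.0896 in Sox17 sets 1, 2 and 3. With 2 libraries per group both Sox7 sets give the same value by construction. No correlations between different sets are given for comparison, so these values do not show the pairing. Gene positions are from GENCODE vM21 on GRCm38. Intervals on counts cover counting error only, since no molecular identifiers are mentioned.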

Additional observations from a re-analysis of the deposited data

Results flagged for a closer look

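For 2 of the 10 genes every set of the Sox7 arm went one way and every set of the Sox17 arm the other, as did 3.08% (lower in Sox7 sets, higher in Sox17 sets) and 2.19% (the reverse) of all genes tested. Tal1 was lower in both Sox7-deficient libraries and higher in all 3 Sox17-deficient libraries than in the control of the same set. The test of the difference between the arms gave -1.73 on the log2 scale (SE 0.92, edgeR unadjusted p = 0.0771, adjusted p = 1.00), which did not pass, and the Sox17 side rested mostly on the 19 counts of Sox17 control 1. Etv6 was higher in both Sox7-deficient libraries and lower in all 3 Sox17-deficient libraries, and the difference between the arms was 0.81 (SE 0.62, edgeR unadjusted p = 0.209, adjusted p = 1.00), which did not pass either.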

How the results depend on the processing

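Of the 10 genes, 0 were called under every setting run; the lowest adjusted p was 0.254, for Mef2c in the Sox17 arm (DESeq2 with replicate block, chosen after seeing the data), and the range over settings for that result was 0.254 to 1. Its log2 fold change kept its sign in 21 of 21 alternatives, between -1.52 and -0.40. Over all genes the counts called in the Sox7 arm, the Sox17 arm and the difference between arms were 0, 0 and 0 as reported, 58, 30 and 58 with no filter on low counts, 3, 29 and 15 with DESeq2, 1, 6 and 3 with the replicate block, and 19, 89 and 40 with DESeq2 and the block. With 1 library left out they ran over 0 to 14 (14 without Sox7-deficient 1, 3 without Sox7 control 1), 0 to 1 (without Sox7-deficient 1, Sox7-deficient 2 or Sox17-deficient 3) and 0 to 9 (without Sox7-deficient 1).

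Signs of single genes changed for values as large as -0.67 (Gata2, Sox7 arm). The cause was not tested, except that pan-endothelial scaling moved the median of all genes in the Sox7 arm to 0.56. In the Sox7 arm Mef2c was -0.00027 as reported, 0.020 with size factors (RLE) and with DESeq2, 0.095 with limma-voom, 0.085 with the replicate block, 0.10 with DESeq2 and the block, 0.000102 with the ribosomal gene Rn45s left out, and 0.54 with pan-endothelial scaling. That scaling also gave 0.13 for Fli1, 0.16 for Ets1 and 0.26 for Elk3 in the Sox7 arm, and 0.11 for Ets1 and 0.65 for Lyl1 in the difference between arms. Lyl1 in the Sox7 arm was -0.14 with limma-voom, -0.072 with the replicate block and -0.056 with DESeq2 and the block. Ets2 in the Sox17 arm was -0.034 with limma-voom and -0.20 without Sox17 set 1, chosen after seeing the data. The Fli1 difference between arms was -0.28, -0.11, -0.072 and -0.32 with limma-voom, the block, DESeq2 with the block and without Sox17 set 1, where that of Lyl1 was 0.13. With the replicate block the Tal1 difference between arms was -2.03 (adjusted p = 1 by edgeR). At an unadjusted p under 0.05, edgeR with the block counted 1 of the 10 genes for the difference between arms. With no filter on low counts it counted 2 of the 10 in the Sox17 arm. The unadjusted shares over all genes in those 2 settings are not given here.

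With 1 library left out, values in the Sox7 arm ran over -0.56 to 0.50 for Erg, -0.83 to 0.25 for Ets1, -0.56 to 0.13 for Elk3, -0.12 to 0.70 for Etv6, -0.69 to -0.090 for Fli1, -0.98 to 0.77 for Lyl1, -1.69 to 0.11 for Gata2 and -0.43 to 0.58 for Mef2c. In the Sox17 arm they ran over -0.999 to 0.32 for Fli1, -0.10 to 0.38 for Ets1, -0.22 to 0.32 for Ets2, -0.10 to 0.70 for Lyl1 and -0.20 to 0.29 for Gata2. In the difference between arms they ran over -0.74 to 0.58 for Fli1, -0.89 to 0.20 for Ets1, -1.15 to 0.58 for Lyl1, 0.21 to 1.49 for Erg, 0.47 to 1.77 for Mef2c, -2.29 to -1.27 for Tal1 and -1.81 to -0.018 for Gata2. Of 150 alternatives to the differences within sets, 10 moved by 1 SD or more. Counting error was largest for Tal1 and Lyl1 in Sox17 control 1, at 19 and 41 counts. With arm means subtracted, levels over the 10 libraries correlated with the log2 library total at -0.70 for Mef2c, -0.69 for Fli1, -0.63 for Erg and 0.76 for Tal1. The other genes lay between 0.06 (Etv6) and 0.50 (Ets2). The part of library depth in the differences was not tested.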

Other observations

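The genes whose pattern over the 10 libraries was most like that of each of the 10 were listed after the mean of each arm had been subtracted, among 8310 genes with a mean of 10 CPM or more. The likeness is Pearson's r of log2(CPM + 1), given as a description: the points share library depth and sample makeup, the highest of 8310 values is large by selection, and Sox17 control 1 holds the highest level of 4 of the 10 genes. For Erg the 2 nearest were Clic4 and Ctbp2 (0.93 each), and for Fli1 Ctsf and Tubb6 (0.94 each). Ets1 was nearest to Procr, the endothelial protein C receptor (0.96), and Ubn1 (0.92), and Ets2 to Zwint (0.94) and Iffo2 (0.94). The 2 ETS repressors were nearest to Capn5 (0.98) and Pdcd4 (0.95) for Elk3, and to Med4 (0.95) and Mdn1 (0.94) for Etv6. Tal1 was nearest to Abhd8 (0.98) and Il20rb (0.97), and Lyl1 to Vdac1 (0.91) and Vps13c (0.88). Gata2 was nearest to Thsd1 (0.98) and Actn4 (0.95), and Mef2c to Rif1 (0.97) and Haus3 (0.96). With the arm means left in, 4 of the 20 values moved by 0.1 or more: Ets2 to Zwint was 0.44, Ets2 to Iffo2 0.77, Etv6 to Mdn1 0.66 and Lyl1 to Vdac1 0.78.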
